A study of Mus musculus with 12 samples.

Results

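The difference described here is that between hippocampi labelled 5xFAD/p75NTRko and hippocampi labelled p75NTRko, the difference that goes with the 5xFAD label where every library also carries the receptor label. Members were chosen by the genotype in the sample titles: 3 libraries labelled 5xFAD/p75NTRko (called double-labelled) and 3 labelled p75NTRko (called p75NTRko-labelled), 6 of the 12 libraries of the series. The other 6 libraries are labelled WT and 5xFAD, 3 of each. All 12 were made from whole hippocampus of mice aged 2 months that had received BrdU, a thymidine analogue taken up by dividing cells, and the series addresses how the p75 neurotrophin receptor bears on adult hippocampal neurogenesis in this Alzheimer model. Of the 13065 genes tested, the 12560 autosomal genes are described. The labels give no sex, no breeding scheme and no account of which part of the receptor gene is removed.

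In 5xFAD mice, human genes with familial Alzheimer mutations are driven by the promoter of Thy1, a neuronal surface glycoprotein, so the transgenes act from neurons and amyloid builds up from an early age. The p75 neurotrophin receptor, encoded by Ngfr, binds neurotrophins and their precursors and, with sortilin-family partners, can signal for survival, death or growth arrest. In the hippocampus the best known cell groups are the granule neurons of the dentate gyrus, to which new neurons are added in adult life, the pyramidal neurons of the CA fields, interneurons, astrocytes, microglia and the oligodendrocytes that make myelin.

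The 6 libraries held 4316739 to 6683613 counts assigned to genes, and values are given as CPM, counts scaled to a common library size. At that depth 3 counts correspond to 0.445 to 0.689 CPM, taken as the lowest level that can be told from 0, and this covers counting error only. Ngfr, the targeted gene, read 7.77, 7.35 and 5.94 CPM in the p75NTRko-labelled libraries and 6.32, 10.5 and 10.5 CPM in the double-labelled ones. Those levels lie above the 1.0 ± 0.89 CPM (SD, n = 3) of the WT libraries, which goes against a loss of this transcript; the libraries hold only 3′ ends, and if the deleted part lies elsewhere in the gene these counts check nothing. Groups are therefore named by label throughout. Xist, transcribed from the inactive X chromosome, was at 359 CPM or more in p75NTRko-labelled replicate 1, in all 3 double-labelled libraries and in all 3 WT libraries, and between 1.53 and 3.57 CPM in p75NTRko-labelled replicates 2 and 3 and in all 3 5xFAD libraries. Summed Y-linked genes ran the other way, from 156 to 200 CPM in the libraries with low Xist and at 1.36 CPM or less in the others. By these genes the libraries with low Xist read as male and the others as female, though the labels state no sex. The Xist class of a library is thus partly confounded with the label. Values against p75NTRko-labelled replicate 1 alone are called those of the same Xist class, and they are not given for every list or gene. In 5xFAD against WT the class and the transgene label cannot be told apart, which holds for every value given below from that comparison and for its part in the interaction.

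Tissue next to the hippocampus also differed between libraries. Markers of choroid plexus epithelium, which lines the ventricle beside the hippocampus, summed over 18 autosomal genes to 7413, 4527 and 5345 CPM in the p75NTRko-labelled libraries and to 7351, 189 and 379 CPM in the double-labelled ones. Markers of thalamus and habenula, 19 genes, summed to 535, 534 and 522 CPM and to 1238, 488 and 650 CPM. Double-labelled replicate 1 therefore stood apart from replicates 2 and 3 in both lists, and replicate 2 was the lowest of the 6 in both. Gene by gene, 17 of the 19 thalamic markers were higher in the double-labelled libraries. At an unadjusted p under 0.05 it was 6 higher and none lower, beside 3.52% and 3.02% of all autosomal genes. Their median log2 fold change was 0.498, and it was 0.264 without double-labelled replicate 1 and 0.725 without double-labelled replicate 2. Of 10 blood genes, 1 passed the filter on low counts. The part that adjoining tissue has in the results below was not tested beyond the values given beside them.

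**Figure D1:**
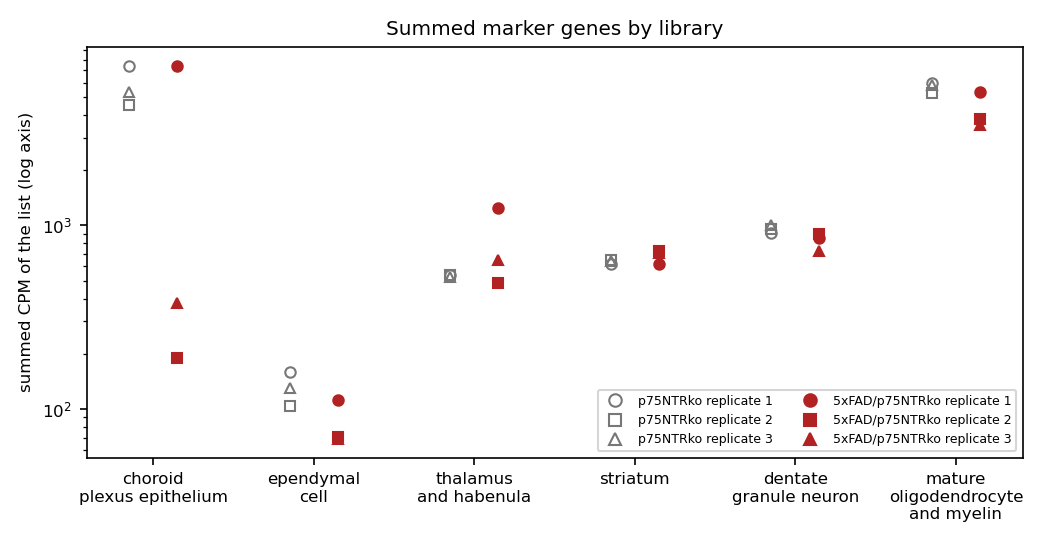
Summed CPM of 6 marker lists (log axis) in each of the 3 p75NTRko-labelled (open grey) and 3 double-labelled libraries (filled red), with 1 symbol shape per replicate number. Choroid plexus markers were at 189 and 379 CPM in double-labelled replicates 2 and 3 and at 4527 CPM or more in the other 4 libraries, and thalamic markers were highest, at 1238 CPM, in double-labelled replicate 1.

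Across autosomal genes, no difference between the labels passed an adjusted p of 0.05 in edgeR's quasi-likelihood test (0 of 12560, 0%). At an unadjusted p under 0.05 the count was 821 genes (6.54%), 442 of them higher (3.52%) and 379 lower (3.02%) in the double-labelled libraries. For 806 genes (6.42%) every double-labelled library was above every p75NTRko-labelled one, and for 726 (5.78%) every library was below, so the libraries did not overlap for 12.2% of genes. DESeq2, run on the same counts, called 13 autosomal genes, 7 higher and 6 lower. The median log2 fold change over all autosomal genes was 0.014, the value beside which the medians below are read. The scaling of the libraries itself places most genes near 0, so a shift of the whole table was not tested. All fold changes are double-labelled against p75NTRko-labelled, and no gene named below passed the adjusted threshold in the edgeR test unless that is stated.

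Thy1 had the smallest p-value of all autosomal genes. It read 740, 737 and 686 CPM in the p75NTRko-labelled libraries and 1778, 4013 and 3175 CPM in the double-labelled ones. All 3 carriers were above all 3 non-carriers at this gene (chr9:44043384-44048579, GRCm38.p6), and the share of its reads that came from the transgenes was not tested. The log2 fold change was 2.05 ± 0.31 (SE), with an edgeR adjusted p of 0.11, and the 3 double-labelled libraries ran from 1778 to 4013 CPM. App, the mouse gene for the amyloid precursor protein, read 963 ± 48.1 CPM (SD, n = 3) without and 1058 ± 97.7 CPM (SD, n = 3) with the transgene label, a log2 difference of 0.14 ± 0.12 (SE).

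Besides Thy1, the 11 other genes with the smallest p-values among those wholly higher in the double-labelled libraries included several expressed by neurons. Meg3, an abundant imprinted long noncoding RNA, read 7185, 6983 and 6323 CPM against 8745, 8957 and 9349 CPM. Basp1, a membrane protein of growth cones and nerve endings, read 804, 865 and 866 CPM against 1040, 1167 and 1045 CPM. These are small, tight differences between abundant transcripts, with log2 fold changes of 0.40 ± 0.09 and 0.36 ± 0.08 (SE). In both genes the groups were separated by more than the spread within either, which the rule that chose them favours. Fdft1, squalene synthase, the enzyme that commits farnesyl units to sterols, read 11.5, 15.6 and 15.6 CPM against 35.1, 22.8 and 22.6 CPM, a log2 difference of 0.92 ± 0.20 (SE). Cbln4, a secreted organiser of synapses, had the largest fold of the group after Thy1, with 6.66, 10.3 and 7.57 CPM against 17.0, 13.4 and 30.4 CPM and a log2 difference of 1.33 ± 0.33 (SE). Its highest carrier value came from replicate 3. Double-labelled replicates 1 and 2, like all the non-carriers, were below the WT mean of 18.3 CPM. The remaining 7 genes were the zinc finger gene Zfp941, the protocadherin Pcdh7, the nuclear receptor Rorb, the galactosyltransferase B3galt2, the teneurin Tenm4, Tox3 and the exocyst subunit Exoc7, with log2 fold changes from 0.38 (Tenm4) to 0.89 (Pcdh7). For Pcdh7, Rorb, Tenm4, Tox3 and Exoc7 the double-labelled means were 31.7, 41.5, 104, 14.9 and 25.1 CPM. They lay close to the WT means of 33.0, 38.8, 106, 17.4 and 25.0 CPM. The p75NTRko-labelled means, 17.4, 25.15, 79.8, 8.78 and 17.3 CPM, lay below those of WT. For Zfp941 and B3galt2 the WT mean, 21.6 and 42.3 CPM, lay between the means of the groups compared.

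The 12 genes with the smallest p-values among those wholly lower held enzymes, an endoplasmic reticulum chaperone and genes of the oligodendrocyte lineage. Pdlim2, a PDZ and LIM domain protein (chr14:70162621-70177672), read 136, 124 and 138 CPM in the p75NTRko-labelled libraries and 89.5, 93.2 and 81.8 CPM in the double-labelled ones. Its log2 fold change was -0.59 ± 0.10 (SE), with an edgeR adjusted p of 0.231. The WT and 5xFAD libraries, at 118 ± 13.2 and 113 ± 9.64 CPM (SD, n = 3), lay between the groups and differed by less than their spread. Nt5c3, a cytosolic nucleotidase (chr6:56882400-56924008), read 137, 119 and 117 CPM against 84.6, 33.9 and 41.9 CPM, a log2 difference of -1.21 ± 0.24 (SE). It was lower in carriers on the WT background too, at 75.9 ± 9.44 CPM in 5xFAD against 141 ± 21.6 CPM in WT (SD, n = 3), a log2 difference of -0.90 ± 0.24 (SE) with an edgeR adjusted p of 0.196. Hdc, which makes histamine from histidine, read 17.4, 12.6 and 13.7 CPM against 7.82, 6.81 and 2.46 CPM, the largest fold of the group at a log2 difference of -1.36 ± 0.34 (SE). Spata13, an exchange factor for small GTPases, and B4galt1, a galactosyltransferase, had log2 fold changes of -0.79 ± 0.16 and -0.65 ± 0.13 (SE), and B4galt1 was particularly even within groups, at 30.4 ± 1.46 and 19.4 ± 0.63 CPM (SD, n = 3). Gpr17, Pllp and Hspa5 are described with their groups below, and Prr18, Tmem88b, Lpar1 and Zfp280b had log2 fold changes from -0.65 (Zfp280b) to -0.45 (Tmem88b).

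**Figure D2:**
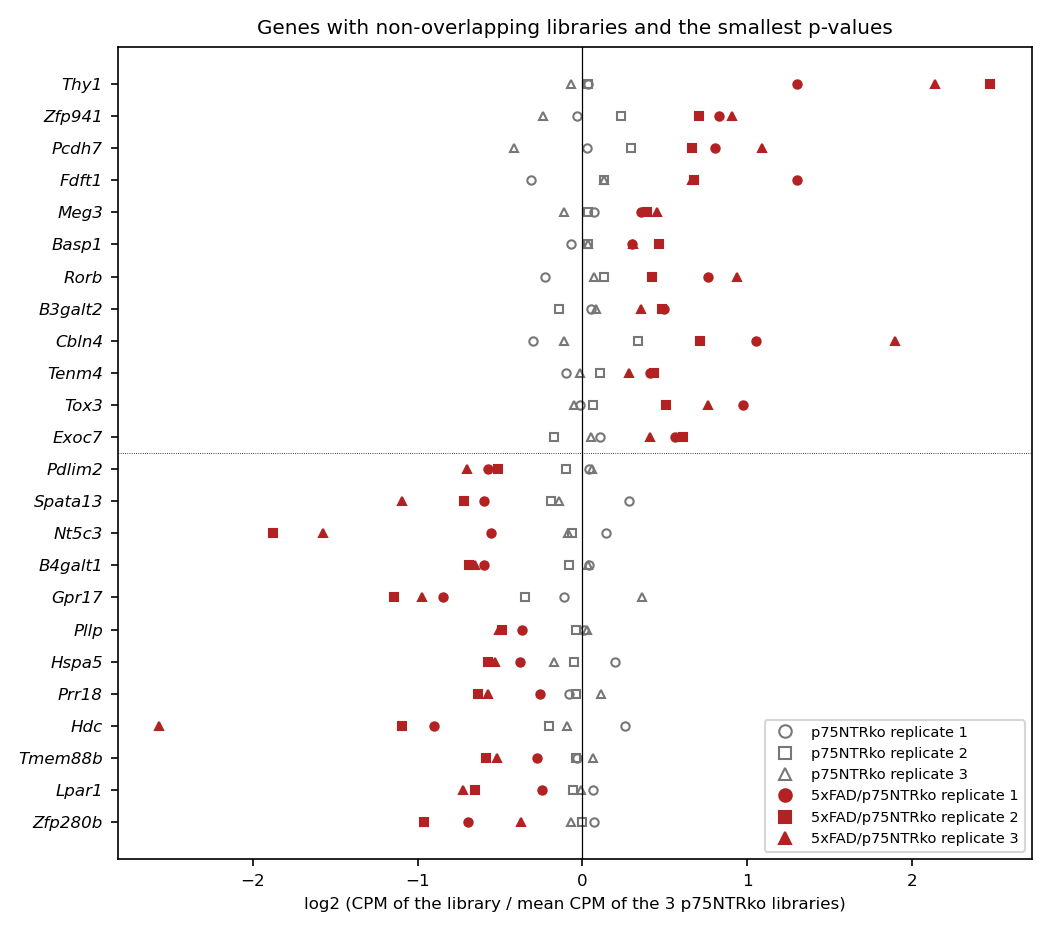
Each library's CPM relative to the mean of the 3 p75NTRko-labelled libraries, on a log2 axis, for the 12 higher and 12 lower genes with non-overlapping libraries and the smallest p-values (open grey, p75NTRko-labelled; filled red, double-labelled). Non-overlap was the rule that chose these genes; the spread within a colour shows how even each gene was, from B4galt1, with double-labelled libraries from 18.9 to 20.1 CPM, to Hdc, with 2.46 to 7.82 CPM.

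These 24 genes lay on 16 chromosomes, with at most 3 on any chromosome. In 5xFAD against WT, a comparison that shares no library with this one, 7 of the 12 higher genes and 6 of the 12 lower genes had the same sign. Of the higher genes 3 had an unadjusted p under 0.05 there, where 13.9% of autosomal genes had one, with the same sign (Thy1, Meg3 and Basp1) and 1 with the opposite sign (Zfp941); of the lower genes 2 had the same sign (Nt5c3 and Hspa5) and 1 the opposite (Pllp). Among all 821 genes at an unadjusted p under 0.05 here, 91 (11.1%) met the same cutoff with the same sign in 5xFAD against WT, beside 6.93% of the 11739 other autosomal genes. With the opposite sign it was 73 (8.89%) beside 6.51%, and 419 of the 821 shared a sign at any p. The test of whether the transgene difference depends on the receptor label called 1 autosomal gene (0.00796%), Adra1b, and none of these 24. At an unadjusted p under 0.05 it held for 9.3% of autosomal genes and for 7 of the 12 higher and 9 of the 12 lower genes, in a test that uses the libraries by which these genes were chosen.

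Genes of mature oligodendrocytes and myelin all had negative fold changes in the double-labelled libraries. Oligodendrocytes wrap axons in myelin, and in a whole hippocampus most of this RNA comes from the white matter at its borders and from myelinated fibres within it. All 34 autosomal members had a negative fold change, 17 of them at an unadjusted p under 0.05 and 14 without overlap of the libraries. Among all autosomal genes 3.02% were lower by p and 5.78% lower without overlap. The median log2 fold change was -0.412 against 0.014 over all autosomal genes. Pllp, the myelin proteolipid plasmolipin, read 194, 188 and 197 CPM against 150, 138 and 136 CPM, a log2 difference of -0.45 ± 0.09 (SE) with an edgeR adjusted p of 0.264. Mag, a myelin adhesion molecule facing the axon, read 87.9, 77.8 and 94.8 CPM against 70.5, 60.5 and 53.0 CPM. Mog, on the outer surface of myelin, read 39.0, 44.1 and 41.1 CPM against 30.1, 22.8 and 22.1 CPM. In each of these genes double-labelled replicate 1 was the highest carrier and still below every non-carrier. Mbp, the myelin basic protein gene and the most abundant member, showed the same order, with 1409, 1217 and 1494 CPM against 1186, 1042 and 888 CPM and a log2 difference of -0.40 ± 0.17 (SE). Cnp, an enzyme of non-compact myelin, differed by -0.42 ± 0.12 (SE) on the log2 scale. Since these are bulk samples, fewer cells of a type and less RNA per cell cannot be told apart.

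The myelin difference held its direction in each left-out library but its size moved with the libraries. Summed over the list, the 3 p75NTRko-labelled libraries held 5932, 5269 and 5826 CPM and the double-labelled ones 5336, 3803 and 3508 CPM, so replicate 1 lay within the range of the non-carriers. That library also had the highest thalamic and choroid plexus marker sums of the carriers. Without it the median was -0.517, and over all single left-out libraries it ran from -0.517 to -0.306. Against the p75NTRko-labelled library of the same Xist class the median was -0.375, with 29 negative and 5 positive genes. In 5xFAD against WT the median of the same 34 genes was 0.046, with 7 genes higher and none lower at an unadjusted p under 0.05. Mog was 26.6 ± 5.51 CPM in WT and 38.2 ± 12 CPM in 5xFAD (SD, n = 3), so its order there was the other way round, and its interaction had an edgeR adjusted p of 0.305. The smallest edgeR adjusted p for the interaction within the list was 0.139, for Pllp.

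Earlier stages of the oligodendrocyte lineage lay on both sides of 0. Of 20 genes of precursors and differentiating cells, 4 were lower and 1 higher at an unadjusted p under 0.05. Among all autosomal genes 3.02% were lower and 3.52% higher, and the median of the list was 0.018. Without double-labelled replicate 1 the median was -0.199, with 13 of the 20 genes negative, and without p75NTRko-labelled replicate 1 it was -0.118. Gpr17, a receptor that marks precursors about to differentiate, read 32.2, 27.3 and 44.7 CPM against 19.3, 15.8 and 17.7 CPM, a log2 difference of -0.99 ± 0.20 (SE) with an edgeR adjusted p of 0.264. Bcas1, found in oligodendrocytes that are starting to myelinate, read 297, 235 and 265 CPM against 234, 165 and 148 CPM. Olig1, a transcription factor of the whole lineage, read 89.0, 109 and 99.8 CPM against 92.5, 66.8 and 66.0 CPM, with replicate 1 of the carriers inside the range of the non-carriers. The precursor receptor Pdgfra, named here after its values were seen, was at 24.9 ± 1.02 CPM without and 26.6 ± 0.95 CPM with the transgene label (SD, n = 3). The higher gene was Tcf7l2, which differentiating oligodendrocytes and thalamic neurons both express; it stood at 118 CPM in double-labelled replicate 1, the library with the most thalamic marker RNA, and at 17.1 and 25.1 CPM in the others.

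**Figure D3:**
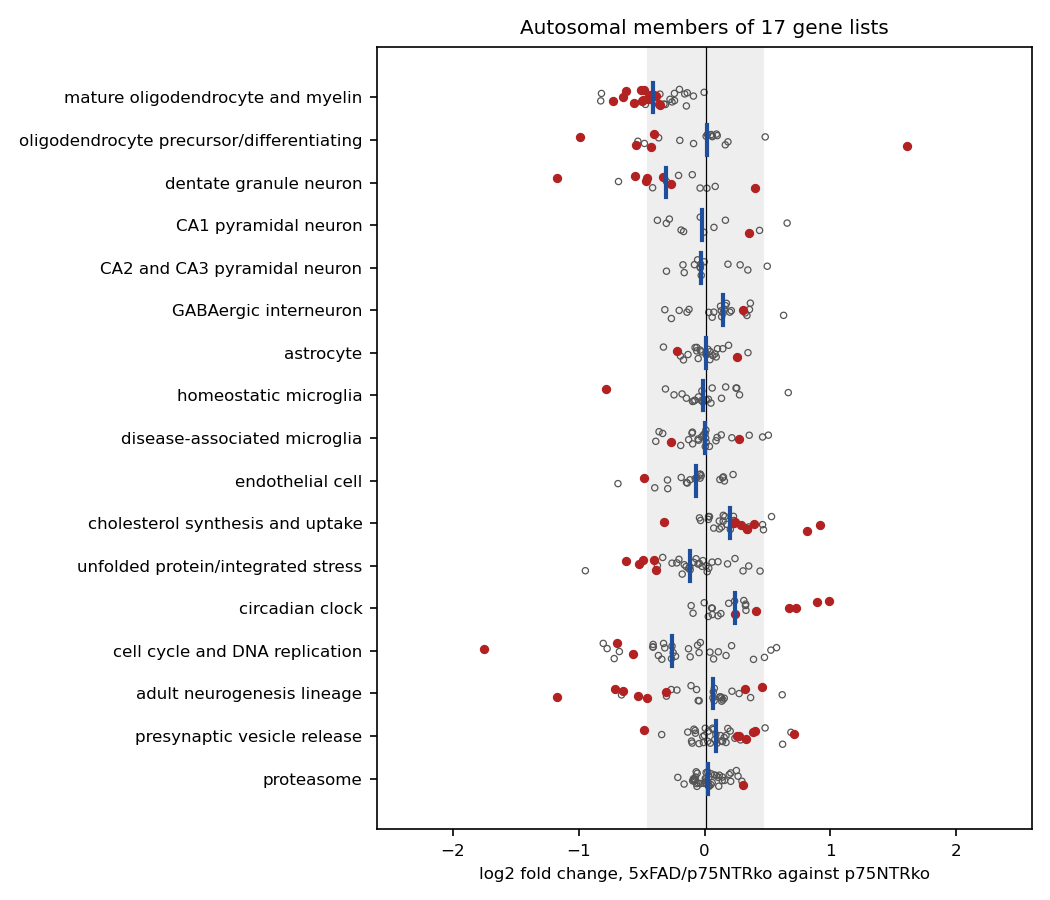
Log2 fold change of every autosomal member tested of 17 gene lists (points; red, unadjusted p under 0.05), with the median of each list (blue bar), the median of all autosomal genes (black line, 0.014) and the range holding the middle 90% of them (grey band). The myelin list lies wholly below 0 with its median at -0.412, the cholesterol list mostly above it at 0.205, and the proteasome list around the line at 0.025.

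Among neurons, genes that mark dentate granule cells were mostly lower. Of 15 such genes 6 were lower and 1 higher at an unadjusted p under 0.05, beside 3.02% and 3.52% of all autosomal genes. Without overlap 6 were lower and 1 higher, beside 5.78% and 6.42%, and the median was -0.302. Stxbp6, a regulator of SNARE assembly, read 142, 150 and 153 CPM against 118, 117 and 119 CPM, a log2 difference of -0.33 ± 0.10 (SE) with an edgeR adjusted p of 0.673. Glis3 and Fam163b were also lower, by -0.46 and -0.27 on the log2 scale, and Rspo3, a secreted enhancer of Wnt signalling, was higher by 0.40. Over single left-out libraries the median ran from -0.357 to -0.197, the latter without double-labelled replicate 3. Against the p75NTRko-labelled library of the same Xist class it was -0.215, with 10 negative and 5 positive genes. In 5xFAD against WT the median was 0.168. Summed, the list held 913, 955 and 1004 CPM in the p75NTRko-labelled libraries and 857, 900 and 730 CPM in the double-labelled ones. The WT libraries held 692, 737 and 904 CPM, a range that spans the double-labelled sums and lies below the p75NTRko-labelled ones. Markers of CA1 and of CA2 and CA3 pyramidal neurons had medians of -0.020 and -0.032, with 1 gene of 12 (Nov, higher) and none of 14 at an unadjusted p under 0.05. The 23 interneuron genes had a median of 0.148, with Kcnc2, a potassium channel of fast-spiking cells, at 76.8, 91.1 and 82.2 CPM against 107, 107 and 95.9 CPM.

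The adult neurogenesis lineage, the subject of the series, was split. Of 30 autosomal genes 6 were lower and 2 higher at an unadjusted p under 0.05, beside 3.02% and 3.52% of all autosomal genes. The median of 0.068 was -0.014 without double-labelled replicate 1 and 0.006 to 0.023 without p75NTRko-labelled replicate 1 or another double-labelled library. Bhlhe22, a transcription factor of postmitotic excitatory neurons, read 386, 381 and 417 CPM against 270, 328 and 268 CPM. Neurod1, which drives granule neuron differentiation, read 72.2, 73.0 and 80.8 CPM against 65.0, 63.1 and 54.5 CPM. Both genes are also expressed by mature granule neurons, the cells of the dentate list above. Their log2 differences were -0.45 ± 0.12 and -0.31 ± 0.12 (SE), and which cells they came from was not tested. Lpar1, a lysophosphatidic acid receptor of neural precursors that myelinating oligodendrocytes share, read 101, 93.0 and 96.3 CPM against 81.6, 61.5 and 58.6 CPM. Cd24a, of neuroblasts and ependymal cells, was lower by -0.65 ± 0.25 (SE) on the log2 scale, but with overlap of the libraries. Ncam1, the most abundant member, was at 660 ± 12.9 and 731 ± 58.9 CPM (SD, n = 3), a log2 difference of 0.15 ± 0.09 (SE).

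Most genes of cell division had negative fold changes, several at levels of few counts. Of 33 autosomal genes 24 had a negative fold change, 3 were lower and none higher at an unadjusted p under 0.05, and 7 were lower and 1 higher without overlap, beside 3.02% lower by p and 5.78% lower without overlap among all autosomal genes. The median was -0.258, and it was -0.129 without double-labelled replicate 3 and -0.171 without p75NTRko-labelled replicate 1. Top2a, the DNA topoisomerase of dividing cells, had 48, 23 and 48 counts in the p75NTRko-labelled libraries and 10, 16 and 10 in the double-labelled ones. In CPM that is 8.88, 5.28 and 7.12 against 1.66, 3.11 and 1.64, a log2 difference of -1.75 ± 0.36 (SE) with an edgeR adjusted p of 0.264. The WT and 5xFAD libraries, at 3.0 ± 1.11 and 4.5 ± 1.10 CPM (SD, n = 3), lay between the groups. The replication helicase subunits Mcm3 and Mcm6 were lower by -0.69 ± 0.27 and -0.57 ± 0.26 (SE), and the abundant cyclin Ccnd2 stood at 102 ± 8.06 and 100.4 ± 10.1 CPM (SD, n = 3). Eomes, a marker of intermediate progenitors, had 5, 3 and 12 counts in the p75NTRko-labelled libraries and 1, 2 and 0 in the double-labelled ones. The carriers lie below the 3 counts taken as the lowest level told from 0, and p75NTRko-labelled replicate 2 lies at it. Eomes did not pass the filter on low counts and was not tested. The proliferation marker Mki67 had 7, 7 and 5 counts against 4, 1 and 5. Both were named after their values were seen.

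Genes of the response to unfolded protein in the endoplasmic reticulum held 5 lower members. When proteins misfold there, ATF6 and XBP1 bind a promoter element, the endoplasmic reticulum stress response element, and raise chaperone transcription, while the kinase PERK and ATF4 raise a different set for amino acid supply. Of 33 autosomal genes of both arms 5 were lower and none higher at an unadjusted p under 0.05, with a median of -0.114. Among all autosomal genes 3.02% were lower and 3.52% higher. Without p75NTRko-labelled replicate 1 the median was -0.024, with 17 negative and 16 positive genes, and without double-labelled replicate 2 it was -0.073. The element, searched as CCAAT and CCACG with 9 bases of any kind between them on both strands in the 250 bases upstream of each RefSeq start (GRCm38.p6), occurred in 37 of 32851 promoters (0.113%) and in 7 of the 30 list genes that have an entry. Of the 4 members with the smallest p-values, 3 carry it, and 150 bases upstream of their start are shown 5′ to 3′ on the strand of the gene, with the match in capitals; Hspa5 lies at chr2:34771940-34772089 (+), Pdia6 at chr12:17266439-17266588 (+) and Creld2 at chr15:88819496-88819645 (+).
Hspa5: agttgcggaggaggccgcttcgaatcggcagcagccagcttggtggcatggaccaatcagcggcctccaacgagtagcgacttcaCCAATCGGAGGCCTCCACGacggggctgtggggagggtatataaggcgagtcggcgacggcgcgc
Pdia6: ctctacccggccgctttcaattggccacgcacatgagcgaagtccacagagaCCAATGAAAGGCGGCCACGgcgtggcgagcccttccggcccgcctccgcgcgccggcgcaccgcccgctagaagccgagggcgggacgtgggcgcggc
Creld2: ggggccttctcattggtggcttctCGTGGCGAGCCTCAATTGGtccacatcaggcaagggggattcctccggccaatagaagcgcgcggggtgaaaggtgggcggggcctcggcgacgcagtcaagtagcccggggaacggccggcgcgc
The match begins at base -65 in Hspa5 and at base -98 in Pdia6, counted back from the annotated start, and at base -126 on the opposite strand in Creld2. A match describes the letters only and is no measure of binding.

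Hspa5, the main chaperone of the endoplasmic reticulum (BiP), read 703, 590 and 544 CPM in the p75NTRko-labelled libraries and 472, 412 and 424 CPM in the double-labelled ones. Every carrier was below every non-carrier, and the log2 difference was -0.49 ± 0.12 (SE) with an edgeR adjusted p of 0.451. Pdia6, a disulfide isomerase that works with it, read 389, 355 and 358 CPM against 299, 238 and 296 CPM, a log2 difference of -0.40 ± 0.11 (SE). The same genes were lower in 5xFAD than in WT, Hspa5 at 464 ± 54.7 against 634 ± 61.5 CPM and Pdia6 at 285 ± 30.6 against 402 ± 35.6 CPM (SD, n = 3), and the interaction tests gave edgeR adjusted p of 0.958 and 0.868. In both genes, then, the carrier means on the 2 backgrounds were closer to each other than to their own controls. Creld2, a secreted resident of the same compartment, read 17.0, 11 and 16.2 CPM against 12.3, 8.95 and 9.66 CPM, with overlap. Sdf2l1, a cochaperone of Hspa5, was lower by -0.63 ± 0.26 (SE) on the log2 scale. The other 4 genes with the element, named for carrying it, were Calr at -0.22, Hsp90b1 at -0.18, Dnajc3 at -0.12 and Canx at 0.03. Of 32 heat shock and chaperone genes, a list that also holds Hspa5, 4 were lower and none higher at an unadjusted p under 0.05: Hspa5 itself, Cryab, Hspa4 and Hspb8. Cryab, a small heat shock protein that oligodendrocytes express and that the myelin list also holds, read 49.6, 51.0 and 44.4 CPM against 39.4, 26.9 and 31.6 CPM; Hsp90ab1, the most abundant, was at 4453 ± 65.3 and 4617 ± 367 CPM (SD, n = 3).

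Most genes of cholesterol synthesis and uptake had positive fold changes. Cells make cholesterol from acetyl-CoA through the mevalonate pathway, and the transcription factor SREBP2 raises the pathway's genes when sterols are scarce. Of 31 autosomal genes 28 had a positive fold change, and 8 were higher and 1 lower at an unadjusted p under 0.05. Without overlap 9 were higher and none lower, and the median was 0.205. Among all autosomal genes 3.52% were higher and 3.02% lower by p, and 6.42% and 5.78% without overlap. Beside Fdft1, given above, Insig1, the sterol sensor that holds SREBP back, read 6.66, 6.66 and 11.1 CPM against 14.6, 17.1 and 12.1 CPM. Its lowest carrier was just above its highest non-carrier. Hmgcs1, a synthase early in the pathway and the most abundant member, read 298, 306 and 314 CPM against 321, 392 and 366 CPM, a log2 difference of 0.23 ± 0.10 (SE). Acat2, which starts the pathway, differed by 0.33 ± 0.14 (SE). In 5xFAD against WT the list had a median of 0.18, with 7 genes higher and none lower at an unadjusted p under 0.05; Hmgcs1 differed there by 0.39 ± 0.10 (SE) on the log2 scale, and the smallest edgeR adjusted p for the interaction within the list was 0.432. Over single left-out libraries the median ran from 0.165 to 0.275.

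The sterol element read by SREBP, searched as TCACNCCAC in the same windows on both strands, occurred in 1.05% of promoters and in 1 of the 22 list genes with an entry, Hmgcs1, at base -137. The 150 bases upstream of its start, chr13:119690201-119690350 (+), are shown with that match in capitals because Hmgcs1 is the list's most abundant gene.
Hmgcs1: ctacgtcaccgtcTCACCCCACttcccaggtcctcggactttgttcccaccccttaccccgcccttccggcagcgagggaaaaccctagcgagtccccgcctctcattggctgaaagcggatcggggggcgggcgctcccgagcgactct
Exact letters at this length miss variants of the element, so no match in the other windows says only that these letters are not there.

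**Figure D4:**
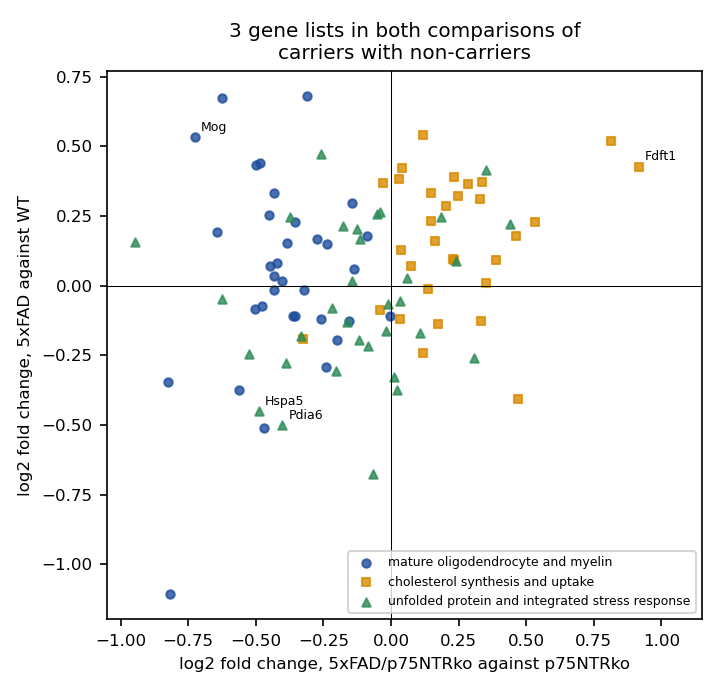
Log2 fold change of each autosomal member of 3 lists between double-labelled and p75NTRko-labelled libraries (horizontal) and between 5xFAD and WT libraries (vertical), comparisons that share no library. Myelin genes lie left of 0 on the horizontal axis and on both sides of 0 on the vertical one, with medians of -0.412 and 0.046; cholesterol genes lie mainly in the upper right, with medians of 0.205 and 0.18.

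Of the genes of the circadian clock, most had positive fold changes. The circadian clock is a loop in which activators drive Per, Cry and Nr1d genes that then repress them, so the levels of its outputs vary over the day; the labels give no hour of dissection. Of 21 autosomal genes 6 were higher and none lower at an unadjusted p under 0.05, beside 3.52% and 3.02% of all autosomal genes. Wholly higher were 6, beside 6.42% of all autosomal genes, and the median was 0.239. Without double-labelled replicate 3 the median was 0.082, with 13 positive and 8 negative genes. Summed, the list held 2333, 2170 and 2210 CPM in the p75NTRko-labelled libraries and 2339, 2198 and 2786 CPM in the double-labelled ones, so that replicate 3 was the highest and the other 5 libraries lay between 2170 and 2339 CPM. Ciart, a repressor of the loop, read 5.92, 8.95 and 13.8 CPM against 15.3, 13.8 and 28.6 CPM, and Nr1d1, which represses the activator arm, read 15.9, 18.8 and 20.8 CPM against 25.8, 27.6 and 35.2 CPM. Both separated the groups, though for Ciart the highest non-carrier and the lowest carrier were both at 13.8 CPM when rounded. Rorb and Rora, nuclear receptors of the same loop, differed by 0.73 ± 0.17 and 0.90 ± 0.21 (SE) on the log2 scale. Rora is also a thalamic marker and read 222, 91.9 and 164 CPM in the double-labelled libraries, the order of the thalamic sums given above, against 92.2, 80.1 and 85.2 CPM. In 5xFAD against WT the median of the clock list was -0.213, the opposite sign, with 6 genes lower and 2 higher at an unadjusted p under 0.05; the smallest edgeR adjusted p for the interaction within the list was 0.112.

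Synaptic and excitability lists held more higher than lower genes. Of 40 presynaptic genes 6 were higher and 1 lower at an unadjusted p under 0.05, with 8 wholly higher, beside 3.52% higher by p and 6.42% wholly higher among all autosomal genes. The median was 0.094, and 0.182 without double-labelled replicate 1. Sv2a, a synaptic vesicle glycoprotein, read 158, 143 and 151 CPM against 206, 212 and 180 CPM, a log2 difference of 0.40 ± 0.10 (SE) with an edgeR adjusted p of 0.457. Vamp1 and Rims2, of the release machinery, differed by 0.39 ± 0.12 and 0.33 ± 0.12 (SE). Of 32 voltage-gated potassium channel genes 5 were higher, among them Kcna2 at 191 ± 8.68 against 242 ± 17.5 CPM (SD, n = 3), and 1 was lower, Kcnip2, an accessory subunit, at 168 ± 5.62 against 123 ± 25.9 CPM (SD, n = 3). Of 32 postsynaptic density genes none passed an unadjusted p of 0.05; Camk2a, the most abundant, read 5234, 5176 and 5411 CPM against 4234, 5562 and 4529 CPM. The glutamate receptor Gria4 and the GABA-A subunit Gabra4 were higher by 0.49 and 0.34 on the log2 scale, Gabra4 with overlap of the libraries. Ache, acetylcholinesterase, was even within groups at 10.6, 10.1 and 10.5 CPM against 14.3, 15.8 and 15.4 CPM, and stood at 15.1 ± 0.83 CPM in 5xFAD and 11.9 ± 1.19 CPM in WT (SD, n = 3).

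Neurotrophin signalling and amyloid processing, the pathways closest to the genotypes, each held few differences. Of 25 neurotrophin genes 1 was higher and 2 lower at an unadjusted p under 0.05, beside 3.52% and 3.02% of all autosomal genes. Sorcs3, a sortilin-family receptor, read 48.1, 47.3 and 46.3 CPM against 58.7, 67.7 and 57.8 CPM, a log2 difference of 0.38 ± 0.11 (SE) with an edgeR adjusted p of 0.605, and it stood at 67.0 ± 5.14 CPM in 5xFAD and 49.0 ± 3.84 CPM in WT (SD, n = 3). Carriers thus exceeded non-carriers by a similar amount on both backgrounds, the log2 fold changes differing by -0.07. The lower genes were Ndn, a partner of p75, and Furin, a protease that matures proneurotrophins, at -0.46 ± 0.19 and -0.38 ± 0.17 (SE). Of 24 amyloid processing genes, Adam17, an alpha-secretase, was lower at 78.5, 69.3 and 78.1 against 60.4, 57 and 62.0 CPM, and Ide, which degrades amyloid peptide, was higher at 27.8, 24.8 and 26.9 against 36.2, 30.2 and 30.1 CPM. Ide rose on the WT background, from 27.7 ± 0.98 to 58.7 ± 0.62 CPM (SD, n = 3), a log2 difference of 1.08 ± 0.11 (SE) with an edgeR adjusted p of 0.000905, among the 4 autosomal genes called in that comparison (0.0318%). The difference on the receptor-labelled background was 0.28 ± 0.11 (SE), and the interaction had an edgeR adjusted p of 0.172.

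**Figure D5:**
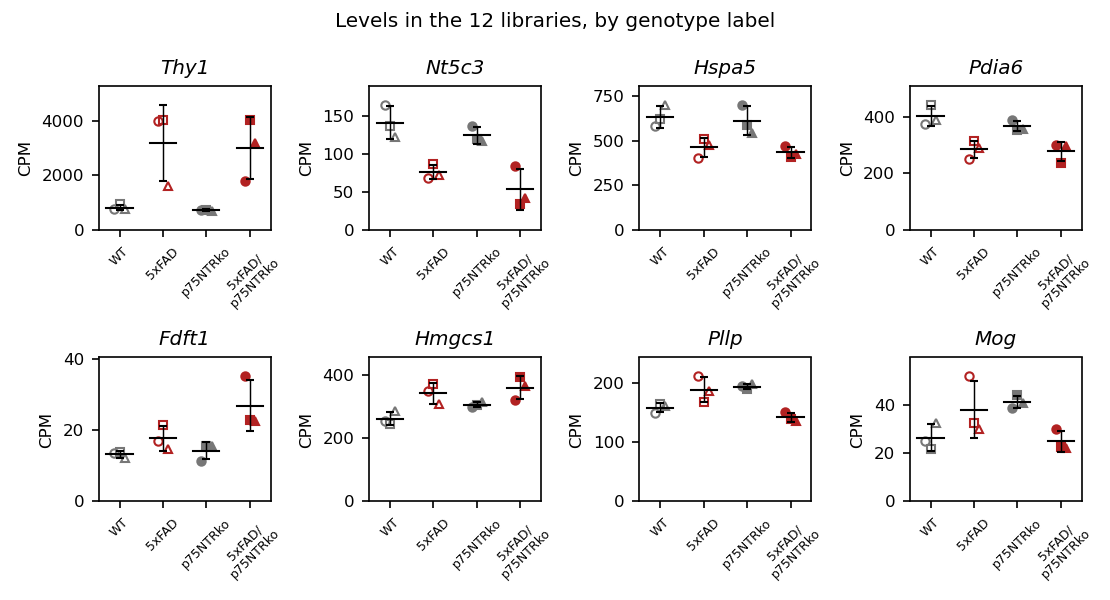
CPM of 8 genes in all 12 libraries by genotype label (points, 1 symbol shape per replicate number; red, with the transgene label, grey, without; filled, with the receptor label, open, without; bars, mean and SD of 3). Thy1 is higher, and Nt5c3, Hspa5 and Pdia6 are lower, in both transgene-labelled groups, whereas the mean of Pllp and of Mog is lowest in the double-labelled libraries, at 141 and 25.0 CPM, and stands at 188 and 38.2 CPM in the 5xFAD ones.

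Lists of glial identity and reactivity held few differences. Among all autosomal genes 3.52% were higher and 3.02% lower at an unadjusted p under 0.05. Homeostatic and disease-associated microglial lists, of 23 and 27 autosomal genes, had medians of -0.013 and 0.005, with 1 lower gene (Olfml3) in the first and 1 higher (Cadm1) and 1 lower (Cd63) in the second at an unadjusted p under 0.05. Cx3cr1, the microglial fractalkine receptor, read 231, 262 and 269 CPM against 224, 215 and 251 CPM, with overlap. Astrocyte identity and reactive lists, of 24 genes each, had medians of 0.014 and 0.037, with 1 higher and 1 lower gene in the first and 2 higher and 1 lower in the second at an unadjusted p under 0.05; Slc1a2, the main glutamate transporter, was at 3031 ± 179 and 3090 ± 409 CPM (SD, n = 3). Gfap, the filament protein that rises in reactive astrocytes, read 94.2, 102 and 112 CPM against 84.8, 91.7 and 73.8 CPM, lower by -0.30 ± 0.14 (SE) on the log2 scale. The 2 higher reactive genes were S100a10, at 16.1, 13.6 and 11.6 CPM against 17.8, 16.7 and 17.5 CPM, and Aspg, at 2.62 CPM or less in every library and with overlap. Interferon and antigen presentation genes, 31 in all, had a median of 0.000.

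Endothelial and pericyte lists, of 20 and 10 genes, both had a median of -0.068. Ependymal genes, which mark the ciliated lining of the ventricle, were lower in all 13 members, 7 at an unadjusted p under 0.05. Among all autosomal genes 3.02% were lower by p. The ependymal median of -1.011 was -1.722 without double-labelled replicate 1. Ak7, a kinase of cilia, read 7.22, 2.52 and 4.75 CPM against 1.83, 1.56 and 0.65 CPM. Summed, the list held 159, 104 and 131 CPM against 112, 70.1 and 68.8 CPM. Choroid plexus genes were lower in all 18 members with a median of -1.18 that ran from -4.125, without double-labelled replicate 1, to -0.637, without replicate 2, and 1 gene (Lbp) reached an unadjusted p under 0.05. Ttr, which carries thyroid hormone, read 6113, 3742 and 4370 CPM against 6018, 49.4 and 208 CPM. Double-labelled replicate 1 was at the level of the non-carriers, and without that library 28 autosomal genes passed an edgeR adjusted p of 0.05, 27 of them lower and 13 of them on the choroid plexus list. Without double-labelled replicate 2, the library with the lowest thalamic marker sum, 4 genes passed, all higher: Rora, Ramp3, Foxp2 and Grm4. Rora and Ramp3 are on the thalamic list, and Foxp2 and Grm4 are not. Foxp2 had 118, 19 and 143 counts in double-labelled replicates 1, 2 and 3, so it was highest in replicate 3.

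Several groups had medians near that of all genes. Proteasome subunits (46 genes) had a median of 0.025 and cytosolic ribosomal proteins (70) of -0.008, and Rps21, the most abundant ribosomal gene here, was at 836 ± 30.9 and 852 ± 15.5 CPM (SD, n = 3). Respiratory chain complex I (34) and complexes II to V (40) had medians of 0.008 and -0.004. By contrast, immediate early genes, which neurons transcribe within minutes of activity, had a median of 0.268 with none of 30 at an unadjusted p under 0.05. Their sum was 2167, 2489 and 2194 CPM against 1732, 2031 and 3865 CPM, so that replicate 3 alone of the carriers was above the others; without it the median was -0.280, and without double-labelled replicate 1 it was 0.502.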

How the data were processed

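Hippocampal RNA of 12 mice was made into 3′ end libraries (QuantSeq FWD), per the labels' protocols, and the authors deposited a table of raw read counts per gene. The submitters' processing notes name FastQC, HISAT2, SAMtools, HTSeq, edgeR and mm10; versions, filters and strand setting are not given in the sources used here, so reads of a gene and an antisense partner cannot be told apart. Samples were grouped by the genotype in their titles, and all carry the same batch label. Replicates are labelled as biological, and p-values measure the spread between these samples. The summary rows of the table, which name no gene, were dropped, and 24421 genes remained. Library totals of gene counts set the precision. The 12 libraries were fitted together with edgeR 4.0.16 in R 4.3.3 (filterByExpr, TMM scaling, quasi-likelihood test with a mean per genotype), and p-values were adjusted by Benjamini and Hochberg over 13065 genes, with DESeq2 1.42.0 as an alternative. The fitting code was tested on simulated data. Chromosomes and starts came from RefSeq for GRCm38.p6, the same assembly as mm10. Columns other than these 12 samples: 0.

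Named genes were Ngfr, Thy1 and App; the 12 higher and 12 lower autosomal genes with the smallest p among those of at least 10 CPM whose libraries do not overlap; in each of 41 gene lists up to 4 members with an unadjusted p under 0.05 and the most abundant member; and up to 10 genes called when a library was left out. Members and lists were chosen with earlier results of these data known, and a gene may be on several lists. Alternatives were other size factors, other filters, the 6 libraries alone, a replicate block, the Xist class as a term, adjustment over autosomal genes, and leaving out each library. Some genes that the rule names are not reported here.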

Additional observations from a re-analysis of the deposited data

Results flagged for a closer look

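Adra1b, the alpha-1B adrenergic receptor (chr11:43774605-43901250, GRCm38.p6), was the autosomal gene whose transgene difference depended on the receptor label in edgeR's interaction test, with a log2 interaction of 2.73 and an adjusted p of 0.0307. It was named after its values were seen. The p75NTRko-labelled libraries read 22.0, 17.4 and 16.9 CPM and the double-labelled ones 39.1, 19.3 and 44.4 CPM, with overlap, a log2 difference of 0.87 ± 0.30 (SE) and an edgeR adjusted p of 0.711. On the other background, WT stood at 56.9 ± 19.4 CPM and 5xFAD at 15.7 ± 3.33 CPM (SD, n = 3), a log2 difference of -1.85 ± 0.30 (SE) with an edgeR adjusted p of 0.0369. Double-labelled replicate 2, the lowest carrier for this gene, also had the lowest thalamic marker sum of the 12 libraries, 488 CPM. The 5xFAD libraries (539 to 642 CPM) had lower sums than the WT ones (799 to 1076 CPM). Within WT the order was the reverse, with Adra1b at 74.0, 60.8 and 35.8 CPM where the sums were 799, 1060 and 1076 CPM. Double-labelled replicate 3, the highest carrier for this gene, had a sum of 650 CPM, below the 1238 CPM of replicate 1. With the Xist class as a term the log2 interaction was 2.14 and no longer passed. That fit takes the class difference from the p75NTRko-labelled libraries alone, where only replicate 1 has high Xist, so it cannot decide the question. The part of adjoining tissue was not tested. Adjusted over autosomal genes alone, its adjusted p was 0.147.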

How the results depend on the processing

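The count of 0 autosomal genes at an adjusted p of 0.05 moved with the tool, the filter and the libraries. DESeq2 called 13 and edgeR without the filter on low counts 3 (Thy1, Pdlim2 and Nt5c3). Only the p75NTRko-labelled group holds both Xist classes, so the Xist term takes the class difference from that group alone. That fit is therefore the same comparison as the one within the Xist class, against p75NTRko-labelled replicate 1 alone. Wdfy1, named after its values were seen, differed there by -1.71 on the log2 scale, and by -0.80 in the main analysis. It read 64.6, 18.6 and 19.9 CPM in the p75NTRko-labelled libraries and 16.8, 20.8 and 21.6 CPM in the double-labelled ones. Leaving out each library in turn gave 0 to 28 calls: 28 without double-labelled replicate 1, 4 without double-labelled replicate 2 and 0 without each of the other 4. The interaction called 1 gene in the main analysis, 20 with DESeq2 and 0 when adjusted over autosomal genes alone. Why the tools differ was not tested. With the Xist class as a term the interaction also takes the class difference from the p75NTRko-labelled group alone, so only effect sizes are given. The log2 interaction was then -3.63 for Wdfy1 and 2.14 for Adra1b, beside -0.979 and 2.73 in the main analysis. With the replicate number as a block the count was 0, and 753 genes had an unadjusted p under 0.05. Deviations of same-numbered libraries correlated at 0.106, -0.0255 and -0.119, and those of all pairs ran from -0.119 to 0.136. Whether same-numbered libraries share more than a number was not tested.

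Of 1476 recomputed values for 99 genes, 11 changed sign, in 5 genes with small differences. Over left-out libraries Slc1a2 ran from -0.051 to 0.128 (also -0.006 and -0.001), Ccnd2 from -0.118 to 0.018 (also 0.014), Hsp90ab1 from -0.009 to 0.102, Canx from -0.004 to 0.071 and Dnajc3 from -0.307 to 0.027 (also 0.006). Slc1a2 was -0.063 with the Xist class as a term and -0.062 within a class. The medians of 21 of the 41 lists changed sign under at least 1 setting; those of the myelin, dentate granule, cell cycle, unfolded protein, cholesterol, clock, ependymal, choroid plexus and thalamic lists did not, though the unfolded protein median came to -0.024 and the clock median to 0.082. With 3 libraries a group and a biological coefficient of variation of 13.8%, depth and spread limit what small differences could be detected.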

Other observations

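Genes that answer to glucocorticoid stress hormones lay on both sides of 0. Of 24 autosomal genes, 2 were lower and 1 higher at an unadjusted p under 0.05, beside 3.02% and 3.52% of all autosomal genes, and the median log2 fold change of -0.184 became 0.123 without p75NTRko-labelled replicate 1 and -0.31 without replicate 3. Nfkbia, an inhibitor of NF-kappaB, read 515, 386 and 332 CPM in the p75NTRko-labelled libraries and 291, 270 and 365 CPM in the double-labelled ones, with overlap. Bcl6, a transcriptional repressor, read 106, 92.5 and 100.2 CPM against 88.1, 73.6 and 72.3 CPM, without overlap, and neither gene passed the adjusted threshold in edgeR.

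Ppp1r1b, the dopamine-regulated phosphatase inhibitor DARPP-32, read 52.4, 38.1 and 51.4 CPM against 37.9, 26.9 and 32.7 CPM, wholly lower in carriers, with a log2 difference of -0.54 ± 0.15 (SE) and an edgeR adjusted p of 0.555. It stood at 51.7 ± 3.34 CPM in WT and 35 ± 3.23 CPM in 5xFAD (SD, n = 3). The striatal list that holds it, 17 autosomal genes, had a median of 0.187 that came to 0.017 without double-labelled replicate 3, 0.028 without p75NTRko-labelled replicate 2 and 0.031 without double-labelled replicate 1. Snhg11, a neuronal long noncoding RNA, read 1298, 1374 and 1289 CPM against 1394, 1485 and 1926 CPM, with the highest value in replicate 3.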
